A study of Mus musculus with 8 samples.

Results

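ND5 and ND6 are neighbouring genes of the mouse mitochondrial genome (mtDNA), and deletions and duplications with both ends inside this stretch were examined in deep sequencing of mouse hearts and brains. The members were selected on the listed positions of each event: both ends between 11742, the start of ND5, and 14070, the end of ND6, with the end at a higher position than the start. This rule took 18 of the 72 entries in 8 event lists, which are 10 of 56 distinct events. Of the 10, 6 are deletions and 4 are duplications. Because position chose the members, their number and place are given as a description without a test.

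The study asked how RNase H1, an enzyme that removes RNA from RNA:DNA hybrids, takes part in mtDNA replication. The hearts came from 8-week-old mice, either L/L (both alleles of Rnaseh1 flanked by loxP sites, no Cre) or L/L, cre (the same alleles with Cre driven by the Ckmm promoter, active in heart and skeletal muscle). The brains came from Mgme1+/+ and Mgme1-/- mice of 23 to 25 weeks. MGME1 is a mitochondrial exonuclease that trims single-stranded DNA ends, and the study used the Mgme1 knockout brains as a control. All mice had a C57BL/6N nuclear background, and each of the 4 groups held 2 mice, 1 male and 1 female. The male hearts were sequenced from mitochondrial DNA and the female hearts from total DNA, so sex and kind of DNA cannot be told apart in the hearts. Total DNA was used for all 4 brains. No test was made between heart and brain groups, since age differs between them as well as the tissue, and values of single events from both are set side by side only as a description. The lists hold no expression values, so the labelled tissues and the loss of Rnaseh1 or Mgme1 could not be checked in them.

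Mitochondrial DNA is a small circle that encodes subunits of the respiratory chain. ND5 and ND6 are membrane subunits of complex I, the NADH dehydrogenase that passes electrons to ubiquinone and pumps protons. ND6 is read from the strand opposite to ND5 and to every other protein-coding gene of the circle. Both genes lie in the major arc, the longer stretch between the origins of light-strand and heavy-strand replication. Large mtDNA deletions in patients often fall in the major arc, and many are flanked by direct repeats, short sequences present at both ends of the lost segment.

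On the mtDNA of GRCm38, which is 16299 bp long, ND5 occupies 11742 to 13565 (1824 bp, 608 codons with the stop) and ND6 occupies 13552 to 14070 (519 bp, 173 codons with the stop). The genes overlap by 14 bp and together span 2329 bp, 14.3% of the circle. Both are single uninterrupted coding sequences without introns. Each listed event carries a stretch of sequence around its start and its end, and in all 72 entries these matched the reference at the listed positions.

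**Figure D1:**
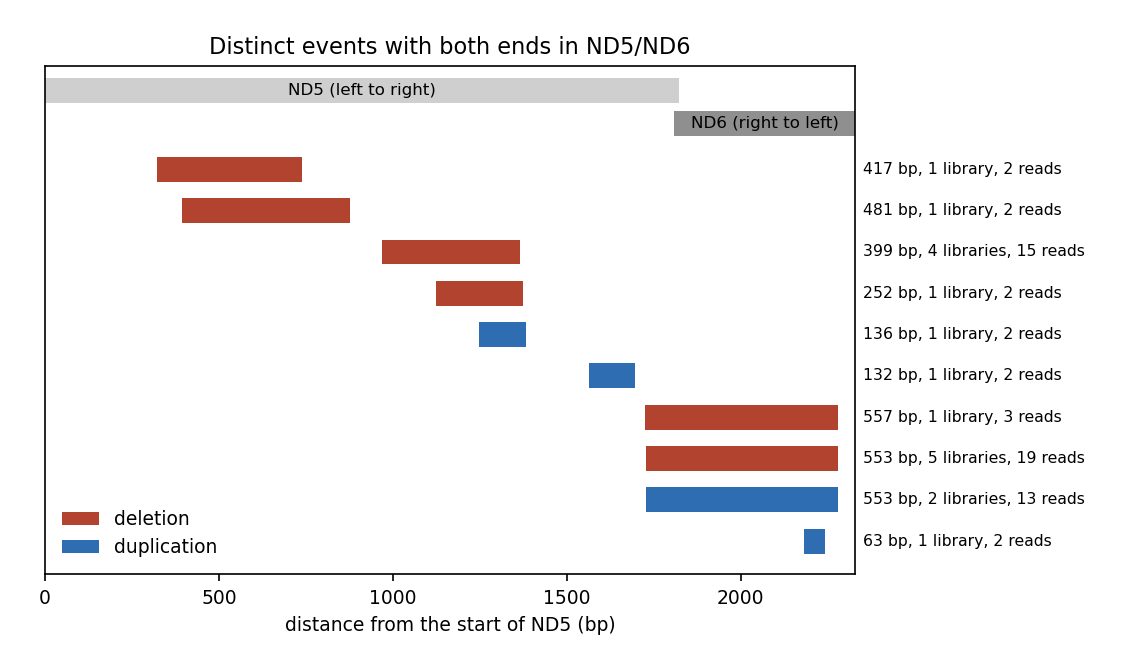
Map of the 10 distinct events with both ends in ND5/ND6. The x axis is the distance in bp from the start of ND5, bars are deleted (red) or duplicated (blue) segments drawn to scale, and the text at the right gives the size, the number of libraries that list the event and its supporting reads over those libraries. The deletions of 399 bp and 553 bp were listed in 4 and 5 libraries, and the 553 bp segment appears as a deletion and as a duplication.

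The plot of positions shows 6 events wholly inside ND5, 1 wholly inside ND6, and 3 that start in ND5 and end in ND6. Of the 10 events, 3 were listed in 2 or more libraries, and these account for 11 of the 18 entries and 47 of the 62 supporting reads. They belong to only 2 segments, from 12710 to 13108 and from 13470 to 14022. Elsewhere in the mtDNA 7 of the 46 events, 1 deletion and 6 duplications, were listed in 2 or more libraries, with direct repeats of 2 to 11 bp (median 7 bp), so recurrence between mice was not limited to long repeats. The sequences at the ends of both segments are shown with their repeats. Capitals mark the direct repeat, all sequences are the plus strand of GRCm38, and each runs 20 bases beyond the repeat on both sides.

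The segment from 13470 to 14022 is 553 bp long and is flanked by a repeat of 15 bp, of which the deposited list gives 14. The start lies at chrM:13450-13504 in the coding sequence of ND5, and the end at chrM:14003-14057 in that of ND6. In the deletion the sequence before the first copy is joined to the sequence after the second, with a single copy kept, and in the duplication the sequence before the second copy is joined to the sequence after the first.
13470 start: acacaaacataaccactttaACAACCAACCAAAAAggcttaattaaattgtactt
14022 end: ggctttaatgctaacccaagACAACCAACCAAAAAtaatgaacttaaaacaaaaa
deletion junction: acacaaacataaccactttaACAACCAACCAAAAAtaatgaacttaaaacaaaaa
duplication junction: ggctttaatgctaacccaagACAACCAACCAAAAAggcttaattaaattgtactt

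The segment from 12710 to 13108 is 399 bp long, lies inside ND5 and is flanked by a repeat of 10 bp in both the list and the reference. Its start lies at chrM:12690-12739 and its end at chrM:13089-13138. It was listed only as a deletion.
12710 start: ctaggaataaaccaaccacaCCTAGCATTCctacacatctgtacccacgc
13108 end: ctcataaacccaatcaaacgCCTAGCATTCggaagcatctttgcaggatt
deletion junction: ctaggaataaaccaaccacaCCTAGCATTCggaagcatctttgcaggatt

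MitoSAlt, the pipeline that the study used, finds reads that align to the mtDNA with a gap and groups those with the same ends. For each event the list gives the supporting reads, the reference reads that cross the same ends without a gap, and the heteroplasmy, the percent of supporting reads among both. A read that joins distant positions of a circle can stand for a deletion of the arc between them or a repeat of the other arc, and each list gives a single reading. The fewest supporting reads of any listed event were 2, and an event that is not listed in a library may have had 0 or 1 read there or may not have met the unstated cut-offs. Heteroplasmy is an average over a piece of tissue, so few altered molecules in many cells and many in few cells cannot be told apart. The paper reports linear mtDNA fragments that cover the major arc in Rnaseh1 knockout hearts, similar to those of MGME1 knockout mice. Reads from such fragments can count as reference reads in ND5/ND6, so heteroplasmy is not a share of full circles. Their effect on the comparisons between genotypes was not tested.

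Depth, taken as supporting plus reference reads at all events of a library, differed between the mice. For the male hearts the median was 27178 (L/L) and 11729 reads (L/L, cre). The female hearts were shallower, with 9941.5 (L/L) and 1655.5 reads (L/L, cre). In the brains the median was 9210 (male Mgme1+/+), 8660 (female Mgme1+/+), 7035 (male Mgme1-/-) and 10442 reads (female Mgme1-/-). At these depths 2 reads correspond to a heteroplasmy of 0.00736% in the male L/L heart, between 0.0171% and 0.0284% in 6 libraries, while in the female L/L, cre heart they correspond to 0.121%. No heteroplasmy listed for ND5/ND6 reached the last value, but that value rests on 2 events outside the region. These lie in COX2 and COX3, with depths of 1589 and 1722 reads. Depth varied along the mtDNA. In the male L/L heart it was 18059 reads at an event from ATP6 to COX3 and at least 27178 reads in ND5/ND6. The depth of the female L/L, cre heart in ND5/ND6 is not known, and its expected reads below use its median. At its listed depths, the lowest of all libraries, this heart was less likely than the others to list an event of equal level. The intervals below are 95% Wilson intervals, and they cover counting error only.

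The deletion of 553 bp was the most widespread event of ND5/ND6. By its listed ends it removes the last 96 bp of ND5, from codon 577 on, and 471 bp of ND6 (90.8% of the gene). This leaves the 16 codons at the beginning of ND6. The junction keeps a copy of the 15 bp repeat, which begins with codon 577. The deletion thus leaves the ND5 codons of the repeat unchanged, followed by taa, a stop codon in the same frame. It was listed at 0.0283% in the male L/L heart (8 reads, interval 0.0144% to 0.0559%), at 0.0236% in its L/L, cre counterpart (3 reads, 0.00803% to 0.0694%) and at 0.0452% in the female Mgme1+/+ brain (4 reads, 0.0176% to 0.116%). In the male and female Mgme1-/- brains it was listed at 0.0288% (2 reads, 0.00791% to 0.105%) and 0.0188% (2 reads, 0.00516% to 0.0686%). It was thus listed in all 4 groups, and the intervals of all 5 libraries overlap. Over these libraries it had 19 reads among 67358, a pooled share of 0.0282% (0.0181% to 0.0441%). At that share the median depths of the libraries that do not list it would give 2.80 reads in the female L/L heart, 0.467 reads in the female L/L, cre heart and 2.60 reads in the male Mgme1+/+ brain, close to or below the 2 reads of the weakest listed events. That these mice do not list it does not show a lower level.

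The same segment was listed as a duplication only in the Mgme1-/- brains, at 0.0576% in the male (4 reads, interval 0.0224% to 0.148%) and 0.0846% in the female (9 reads, 0.0445% to 0.161%). The duplication repeats the end of ND5 and most of ND6 in tandem. Within each of these mice, the deletion and the duplication were set against the same reference reads, 6936 in the male and 10626 in the female. Together they made up 0.0864% of the reads at these ends in the male and 0.103% in the female, and duplication reads were 66.7% (4 of 6 reads, interval 30.0% to 90.3%) and 81.8% (9 of 11 reads, 52.3% to 94.9%) of them. In the male L/L heart, the male L/L, cre heart and the female Mgme1+/+ brain the same ends had 8, 3 and 4 deletion reads and no listed duplication. An event that is not listed may still have had a read, so no share of duplication reads is given for these 3 libraries. The pooled share of the duplication in the Mgme1-/- brains was 0.0740% (13 of 17575 reads, interval 0.0432% to 0.127%). At that share the median depths would give 6.81 and 6.41 reads in the control brains, male and female. The share comes only from the 2 libraries that list the duplication, which can make it too high. These expected reads therefore do not show a lower level in the controls. The event was noticed for this pattern, so its values are a description.

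The deletion of 399 bp takes the length of 133 codons, or 21.9% of the gene, out of ND5 without shifting the reading frame. By its listed ends it runs from within codon 323 to within codon 456. It was listed in 1 mouse of each group. The heteroplasmies were 0.0258% in the male L/L heart (7 reads, interval 0.0125% to 0.0532%), 0.0256% in the L/L, cre male (3 reads, 0.0087% to 0.0752%), 0.0326% in the male Mgme1+/+ brain (3 reads, 0.0111% to 0.0957%) and 0.0195% in the female Mgme1-/- brain (2 reads, 0.00535% to 0.0711%). The 4 values have a mean of 0.0259% ± 0.00535 (SD, n = 4 libraries), and all intervals overlap. The pooled share was 0.0257% (15 of 58365 reads, 0.0156% to 0.0424%), which overlaps that of the 553 bp deletion. The median depths of the 4 other libraries would give between 0.425 and 2.55 reads at this share. These levels come only from libraries that list the event, where depth and the minimum of 2 reads limit the values that can appear, so they do not show that the levels are equal between groups.

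**Figure D2:**
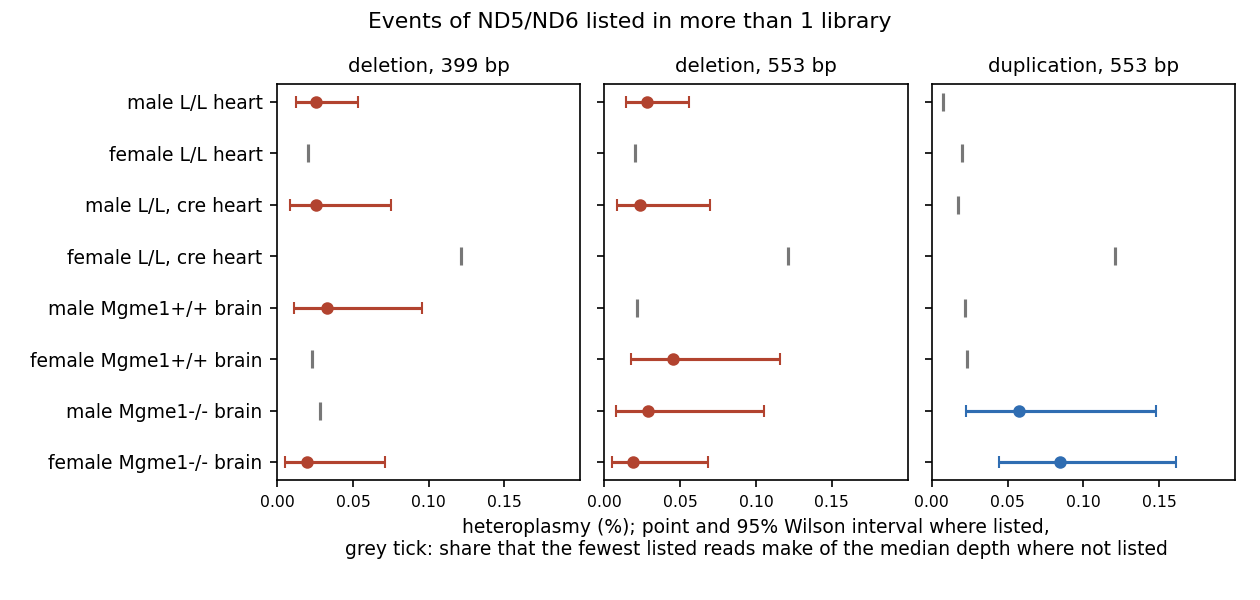
Heteroplasmy in percent (x axis) of the 3 events of ND5/ND6 listed in more than 1 library, for each of the 8 libraries (y axis). Points with bars are listed values with 95% Wilson intervals, and grey ticks mark, in libraries that do not list the event, the heteroplasmy that 2 reads would give at the median depth. Both deletions lie between 0.0188% and 0.0452% in hearts and brains, and the duplication is listed at 0.0576% and 0.0846% in the Mgme1-/- brains.

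A further deletion shares an end with the 553 bp segment. In the male L/L, cre heart the list has a deletion from 13466 to 14022 (557 bp, 3 reads, 0.0236%, interval 0.00803% to 0.0694%) beside the one from 13470. Its right end is the same, and its left end lies 4 bases before the first copy of the 15 bp repeat. Its junction therefore keeps the whole second copy but lacks the 4 bases in front of the first, and the reference has 0 bp of exact repeat at these ends, against 2 bp in the list. It was not listed in the other 7 libraries.
13466 to 14022 deletion junction: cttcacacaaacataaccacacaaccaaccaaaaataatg

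The other 6 events were each listed in 1 library with 2 reads. Within ND5, these are the deletions from 12064 to 12480 (417 bp, 0.0194%) in the female Mgme1-/- brain, from 12137 to 12617 (481 bp, 0.0199%) in the female L/L heart and from 12865 to 13116 (252 bp, 0.0208%) in the male Mgme1+/+ brain. The female Mgme1-/- brain also has the ND5 duplications from 12990 to 13125 (136 bp, 0.0192%) and from 13307 to 13438 (132 bp, 0.0196%). The duplication inside ND6, from 13923 to 13985 (63 bp, 0.0250%), was listed in the female Mgme1+/+ brain. Each of these rests on the fewest reads that any list contains, and none was seen in another mouse.

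Some ends of the rare events lie close together. The right ends of the 399 bp deletion, the 252 bp deletion and the 136 bp duplication fall within 18 bp, from 13108 to 13125. The male Mgme1+/+ brain lists both deletions, and the female Mgme1-/- brain lists the 399 bp deletion and the duplication. The 252 bp deletion was joined at an 8 bp repeat whose second copy, at chrM:13117-13124, begins inside the second copy of the 10 bp repeat of the 399 bp deletion, at chrM:13109-13118.
12865 start: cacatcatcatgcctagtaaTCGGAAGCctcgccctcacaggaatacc
13116 end: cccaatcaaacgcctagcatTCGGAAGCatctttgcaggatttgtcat

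Sizes of the members ranged from 63 to 557 bp. The 6 deletions had a median of 449 bp (252 to 557 bp) and the 4 duplications a median of 134 bp (63 to 553 bp). Elsewhere in the mtDNA the 5 distinct deletions were of similar size, with a median of 407 bp (333 to 563 bp), and the 41 distinct duplications had a median of 114 bp (57 to 15926 bp). Sizes that are a multiple of 3, which keep the reading frame within a protein-coding gene, were found for 5 of the 10 distinct members and 22 of the 46 other events. Many of the other events have ends in rRNA or tRNA genes or outside genes, where there is no reading frame. The counts thus compare sizes only. No event of ND5/ND6 removes a whole gene.

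Most listed deletions, but few of the duplications, lay in ND5/ND6. Of all 19 deletion entries, 13 (68.4%) lay in ND5/ND6, against 5 of 53 duplication entries (9.43%). Entries count an event once for each library, and 9 of the 13 are the 2 recurrent deletions. Over distinct events, 6 of 11 deletions (54.5%) and 4 of 45 duplications (8.89%) lay in the region. All member entries were deletions in the male L/L, female L/L and male L/L, cre hearts (2, 1 and 3 entries) and in the male Mgme1+/+ brain (2 entries). In the female Mgme1+/+, male Mgme1-/- and female Mgme1-/- brains 50% of the member entries were deletions (1 of 2, 1 of 2 and 3 of 6). Among the other entries of the same libraries the share of deletions was 100% in the male L/L heart (1 of 1), 60% in the female Mgme1+/+ brain (3 of 5), 33.3% in the male Mgme1+/+ brain (1 of 3), 4.35% in the female Mgme1-/- brain (1 of 23) and 0% in the remaining 3. Within libraries the share was higher in ND5/ND6 in 5 of 7, equal in 1 and lower in 1, by a mean of 50.3 percentage points ± 43.6 (SD, n = 7; exact 2-sided sign-flip permutation test, p = 0.0625, where the smallest possible p with 1 library at 0 is 0.0312). The difference did not pass the threshold of 0.05.

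For comparison among genes, the number of events with both ends inside a single gene was counted for the 13 protein-coding genes. ND5 held 4 distinct deletions and 2 distinct duplications (3.29 per kb), and 7 deletion entries in all. ND6 held 1 duplication (1.93 per kb). CYTB, the complex III subunit next to ND6, held 2 distinct deletions and 7 distinct duplications (7.87 per kb), COX3 of complex IV 1 and 2 (3.83 per kb), and ND1 of complex I 0 and 3 (3.13 per kb). ND2 held 1 deletion, COX1 and COX2 each 1 duplication, and the 5 genes ND3, ND4, ND4L, ATP6 and ATP8 held none. ND5 thus had more deletion entries than any other single gene in these lists, while per kb its distinct events were fewer than those of CYTB and COX3.

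All 10 members had a direct repeat in the list, from 2 to 14 bp. It was 8 bp or longer in 4 of the 6 deletions and 1 of the 4 duplications, that of the 553 bp segment. The median over distinct members was 7.5 bp, against 6 bp over the 46 other events, of which 4 had none. By type, distinct deletions had a median of 8 bp in ND5/ND6 and 8 bp elsewhere, and distinct duplications 5.5 and 5 bp, so over distinct events of a type the lengths were nearly the same. In the male L/L heart the median over entries was 12 bp in ND5/ND6 and 8 bp elsewhere. It was 6 and 6 bp in the female L/L heart and 10 and 5.5 bp in the male L/L, cre heart. In the brains it was 9 and 7 bp (male Mgme1+/+), 9 and 8 bp (female Mgme1+/+), 14 and 4 bp (male Mgme1-/-) and 9 and 6 bp (female Mgme1-/-). The median over entries was thus longer in ND5/ND6 in 6 of 7 libraries and equal in 1. Deletions made up a larger share of the entries in ND5/ND6 in 5 of these 7 libraries, an equal share in 1 and a smaller share in 1.

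The mean difference was 3.50 bp ± 3.28 (SD, n = 7; exact 2-sided sign-flip permutation test, p = 0.0312). This is the smallest p possible with 1 library at 0. With the exact repeat lengths of the reference the difference was 3.43 bp and no longer under 0.05 (exact permutation p = 0.0938, n = 7, smallest possible p 0.0156). Without the 553 bp segment it was 0.333 bp (exact permutation p = 0.875, n = 6), which the removal of the longest repeats lowers by construction. Leaving out a mouse gave differences of 2.42 to 4.08 bp. Without the female L/L heart, the library at 0, the exact permutation p was 0.0312 (n = 6). The 6 other omissions keep it, and with it the smallest possible p is 0.0625, which each of them gave, so they say nothing about the call. Without any event listed in 2 or more libraries, inside the region or elsewhere, it was -1.20 bp (exact permutation p = 0.500, n = 5, where the smallest possible p with these differences is 0.25). Since the libraries share these events, the p-value does not rest on 7 independent observations. Taken alone, deletions differed by 2.50 bp (n = 4 libraries) and duplications by 3.67 bp (n = 3 libraries), too few libraries for a test that could reach 0.05.

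**Figure D3:**
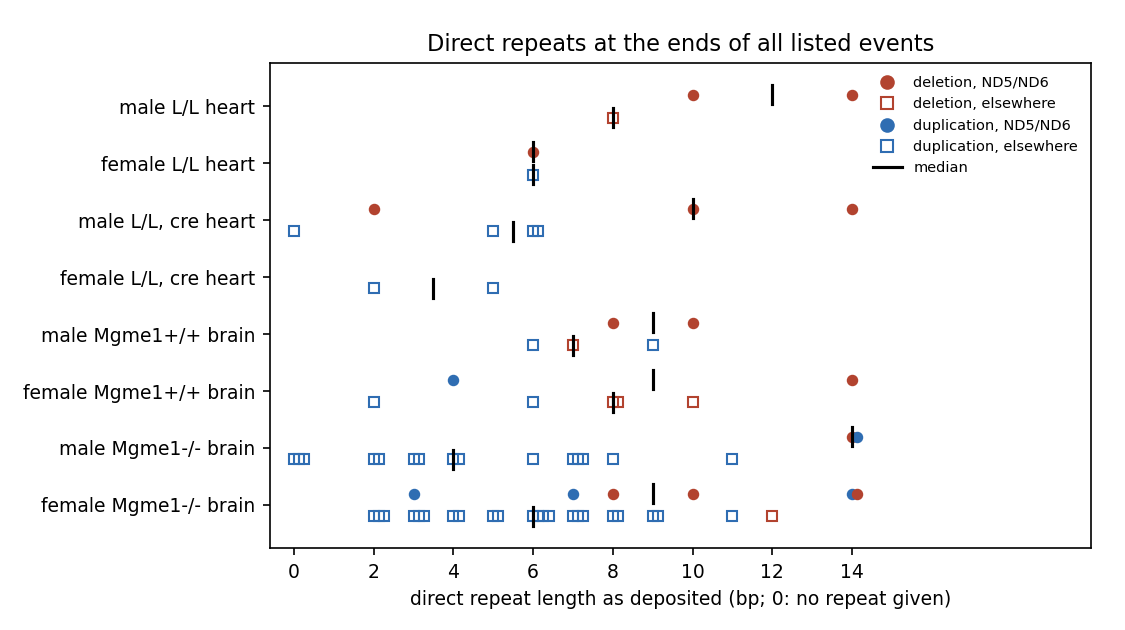
Length in bp of the direct repeat given for every listed event (x axis) in the 8 libraries (y axis). Filled circles are events of ND5/ND6, open squares are events elsewhere, red marks deletions and blue duplications, black lines are medians, and events of equal length are set side by side. The points at 14 bp are the 553 bp segment and those of ND5/ND6 at 10 bp the 399 bp deletion.

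The reference was also searched for all direct repeats of at least 10 bp between 11742 and 14070, whether or not an event was listed there. It holds 10 such pairs. The longest, 15 bp, is the pair at the ends of the 553 bp segment, among 4 pairs of at least this length in the whole mtDNA, where the longest has 16 bp. An event was listed at 2 of the 10 pairs, the 15 bp pair and the 10 bp pair of the 399 bp deletion. No event was joined at the pairs of 13 and 12 bp, or at 6 of the 7 pairs of 10 bp. Both segments of ND5/ND6 that recur between mice thus lie at such pairs, while most pairs of this length had no listed event at these depths.

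The 12 bp pair lies beside an event. Its copies, at chrM:13910-13921 and chrM:13973-13984, are 63 bp apart, the same as the size of the ND6 duplication from 13923 to 13985, and 1 base lies between the first copy and the start of the duplicated segment. The list gives a repeat of 4 bp for this duplication, and the reference has 0 bp of exact repeat at its listed ends. Deposited and exact repeat lengths differed in 5 of the 10 distinct members, and with the exact lengths from the reference the mean difference between ND5/ND6 and other events was 3.43 bp (exact permutation p = 0.0938, n = 7), no longer under 0.05.

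In the hearts the mean number of ND5/ND6 deletions was the same in both genotypes. There were 2 and 1 in the L/L mice (male, female) against 3 and 0 in the L/L, cre mice (male, female), or 1.5 ± 0.707 against 1.5 ± 2.12 (SD, n = 2 and 2; exact 2-sided permutation test, p = 1). Summed over these deletions, heteroplasmy was 0.0541% (male) and 0.0199% (female) in L/L hearts and 0.0728% (male) and 0% (female) in L/L, cre hearts. The means of 0.0370% ± 0.0242 and 0.0364% ± 0.0515 differed by less than the spread between mice (exact 2-sided permutation test, p = 1, n = 2 and 2). The groups overlap, and the mouse without any event is the one with the lowest depth. No duplication of ND5/ND6 was listed in any of the 4 hearts.

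In the brains the deletions again overlapped between the groups. Control mice had 2 (male) and 1 (female), and knockout mice 1 (male) and 3 (female), or 1.5 ± 0.707 against 2 ± 1.41 (SD, n = 2 and 2; exact 2-sided permutation test, p = 1). Together these deletions amounted to 0.0534% (male) and 0.0452% (female) in controls, against 0.0288% (male) and 0.0577% (female) in knockouts. The means were 0.0493% ± 0.0058 and 0.0432% ± 0.0204, with p = 1 in the exact 2-sided permutation test (n = 2 and 2). Among events with at least 3 reads, each control brain had 1 deletion and the knockout brains had none, a difference of -0.0389 percentage points in summed heteroplasmy (exact 2-sided permutation test, p = 0.333, n = 2 and 2).

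Duplications of ND5/ND6 had a higher summed heteroplasmy in each Mgme1-/- brain than in either control, a difference that 2 mice a group cannot test at 0.05. Control mice had 0 (male) and 1 (female) and knockout mice 1 (male) and 3 (female), so the counts overlap (0.500 ± 0.707 against 2 ± 1.41, SD, n = 2 and 2; exact 2-sided permutation test, p = 0.667). Over the whole mtDNA the same mice had 2 and 3 duplications in controls and 16 and 25 in knockouts, most of them outside the region. The summed heteroplasmy of the ND5/ND6 duplications was 0% and 0.0250% in the Mgme1+/+ brains and 0.0576% and 0.123% in the Mgme1-/- brains. The groups do not overlap, with means of 0.0125% ± 0.0177 and 0.0905% ± 0.0465 and a difference of 0.0780 percentage points (exact 2-sided permutation test, p = 0.333, n = 2 and 2). With 2 mice against 2 the smallest possible p is 0.333. Without the 553 bp duplication the difference was 0.0069 percentage points, and it thus came almost wholly from that segment.

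**Figure D4:**
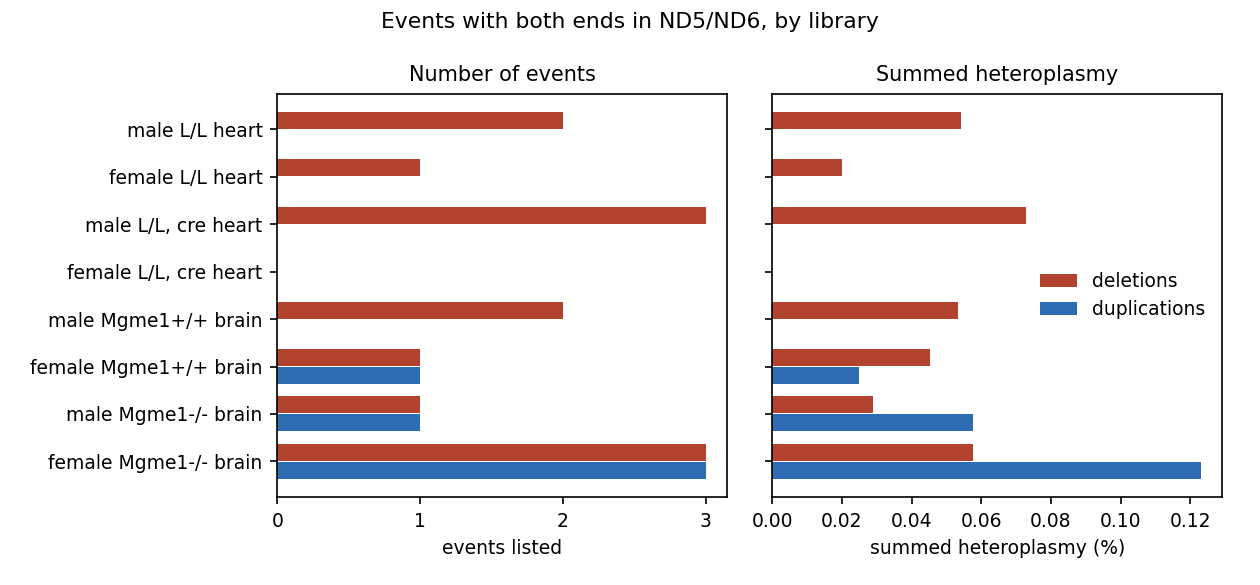
Number of deletions and duplications with both ends in ND5/ND6 (left, x axis in events) and their summed heteroplasmy in percent (right) for each library (y axis). Bars start at 0, red bars are deletions and blue bars duplications. Blue bars appear for the female Mgme1+/+ brain (0.0250%) and for the male (0.0576%) and female (0.123%) Mgme1-/- mice.

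Supporting reads were few throughout. The 18 member entries had 2 to 9 reads each, 9 of them had 2, and none reached 10. Events of ND5/ND6 held 71.4% of all supporting reads in the male L/L heart (15 of 21 reads, interval 50% to 86.2%) and 50% in the female L/L heart (2 of 4, 15.0% to 85.0%). The male L/L, cre heart had a share of 47.4% (9 of 19, 27.3% to 68.3%). In the brains it was 45.5% in the male Mgme1+/+ (5 of 11, 21.3% to 72.0%) and 37.5% in the female Mgme1+/+ mouse (6 of 16, 18.5% to 61.4%). In the Mgme1-/- brains it was 12.8% in the male (6 of 47, 5.98% to 25.2%) and 21.3% in the female (19 of 89, 14.1% to 31.0%). The shares of the Mgme1-/- brains were the lowest among the libraries with a member, while their number of entries outside the region was the highest, at 15 and 23 against 1 to 5 in the other libraries.

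Copies of mtDNA sequence in the nuclear genome could yield gapped reads, because reads were aligned to the mtDNA alone. The joined sequence of each distinct member, 60 bp on both sides of the junction, was searched for in the nuclear chromosomes of GRCm38. A match across the junction was found for 1 of 10, the ND6 duplication from 13923 to 13985, with at most 75.2% identity over 101 bp. The joined sequences of both recurrent deletions and of the 553 bp duplication had no such match, whereas the intact sequence at the ends of all 10 events did. Only the assembled chromosomes of GRCm38 were searched. Whether reads from intact nuclear copies were aligned with a gap was not tested.

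At the border of the rule, the events nearest to it on the inside were those that end at 14022, 48 bp before the end of ND6. The nearest outside were 2 duplications of CYTB. The nearer starts 362 bp beyond that end and was listed in the female Mgme1-/- brain (2 reads, 0.0178%). The other starts 369 bp beyond it and was listed in the female (2 reads, 0.0180%) and the male Mgme1-/- brain (7 reads, 0.0954%). A single event had only 1 end in the region: in the female Mgme1-/- brain, a duplication listed from 12871 in ND5 around the circle to 4232 in ND2 (2 reads, 0.0220%, interval 0.00604% to 0.0803%). Its listed size is 7661 bp, the other arc measures 8638 bp, and its repeat has 9 bp.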

How the data were processed

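The authors made TruSeq Nano libraries from mitochondrial or total DNA. NovaSeq reads were aligned to the mtDNA of GRCm38 without the nuclear genome. MitoSAlt grouped gapped reads into deletions and duplications, and PCR duplicates were removed. The MitoSAlt version and cut-offs are not given in the sources used here. The authors deposited, for each event, raw counts of reads with and without the gap, and heteroplasmy as a percent of both. Recomputed heteroplasmies differed from the deposited ones in 0 of 72 entries at 4 decimals.

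Members were taken by position, and the members and lists were chosen with earlier results of these data known. Every distinct member is named, with full values for those in 2 or more libraries or with 3 or more reads. Groups were compared over mice by exact 2-sided permutation, and differences within libraries by exact 2-sided sign flips, both tested on values with known answers. Direct repeats were also read from the GRCm38 mtDNA at each pair of ends. Matches in nuclear chromosomes were searched by blastn (BLAST+ 2.17.0, words of 11, largest e-value 0.001) and had to cover 25 bp on each side of a junction. Calculations used NumPy 2.4.6 and SciPy 1.17.1 under Python 3.11.15, with plots by matplotlib 3.10.9. Alternatives were minima of 3 and 10 reads, either end in the region, merging within 10 bp, leaving out each mouse, pairs of the same sex, recomputed heteroplasmy, mean repeat lengths and exact repeats. Those without the 553 bp segment, without shared events and by type of event were chosen after the data were seen.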

Additional observations from a re-analysis of the deposited data

How the results depend on the processing

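Differences are knockout minus control, in events per mouse or percentage points of heteroplasmy. Of 96 alternatives over 9 results, 61 kept the direction and the side of the threshold or stayed within 1.5 times the count, and no group comparison could pass 0.05 with 2 mice against 2. The deletion count in the hearts, equal between genotypes, became 0.5 with at least 3 reads and -0.5 after merging, and lay between -1.5 and 1.5 when a mouse was left out. The deletion count in the brains, 0.5, turned to -1 with at least 3 reads and ranged from -0.5 to 1.5 without a mouse, and the duplication count, 1.5, ranged from 0.5 to 2.5 and was 0.5 without the 553 bp segment. Summed deletion heteroplasmy in the hearts turned to 0.00935 with at least 3 reads and ranged from -0.037 to 0.0358 without a mouse, and in the brains, -0.00605 as reported, it was -0.0389 with at least 3 reads, where the groups no longer overlap, and ranged from -0.0205 to 0.0084 without a mouse. Summed duplication heteroplasmy in the brains stayed above 0, between 0.0451 and 0.111, when a mouse was left out. With at least 10 reads no member remained, so these brain counts and all 3 summed differences were 0, and the repeat length and deletion share gave no value.

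The difference in repeat length was 5.62 bp with at least 3 reads (exact permutation p = 0.125, n = 4), 2.50 bp in deletions (n = 4) and 3.67 bp in duplications (n = 3). With these differences the smallest possible exact permutation p is 0.125 with n = 4 and 0.5 with n = 3, so these settings say nothing about the call. It was 3.43 bp with exact repeats, no longer under 0.05, and -1.20 bp without shared events. Without the 553 bp segment it was 0.333 bp, which the removal of the longest repeats lowers by construction. Leaving out a mouse gave 2.42 to 4.08 bp. The exact permutation p was 0.0312 without the female L/L heart, whose difference is 0, and 0.0625 in the 6 omissions that keep it (n = 6), the smallest possible there, so these say nothing about the call. The cause of the other changes was not tested. The share of deletions stayed higher in ND5/ND6 under all 12 alternatives that gave a value, 25.0 to 60.4 percentage points. Depth limits all results: most members rest on 2 or 3 reads, and the female L/L, cre heart had the lowest depth.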
